A study of Mus musculus with 6 samples.

Results

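The genes described here are 10 components of bone morphogenetic protein (BMP) signalling in mouse dermal fibroblasts: Bmp1, Bmp2, Bmp4, Bmpr1a, Grem1, Smad6, Id1, Id2, Id3 and Id4. Members were all probe sets whose only gene symbol in the platform's annotation is one of these names, which gave 21 of the 45037 probe sets outside the manufacturer's controls, or 10 of the 18193 genes named by a probe set with 1 symbol. Expression was profiled on 6 Affymetrix arrays, each holding the RNA of its own culture. The cells were primary dermal fibroblasts grown from skin explants of mice of strain B6, of mixed sex and 0 to 2 days old, and were used at passage 4. The treated group (n = 3) spent 96 hours in medium with 5-aza-2'-deoxycytidine at 5 µM, renewed every 24 hours, and a further 24 hours without it. The control group (n = 3) was untreated. 5-aza-2'-deoxycytidine (decitabine) is a nucleoside analogue that becomes part of newly made DNA and inactivates DNA methyltransferases there. The comparison asks how transcripts of this pathway differ after the exposure.

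BMPs are secreted dimers that bind paired type I and type II receptor kinases on the cell surface. The activated type I receptor phosphorylates Smad1, Smad5 and Smad9, which join Smad4 and enter the nucleus, where the Id genes are among their best known direct targets. Secreted antagonists such as gremlin and noggin bind the ligands, and the inhibitory Smads, Smad6 and Smad7, damp the signal inside the cell. Id proteins are helix-loop-helix proteins without a DNA-binding region, which pair with E proteins and keep them off DNA. In skin, BMP signalling is known for its part in the hair cycle and in communication between dermis and epidermis.

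The drug acts at cytosines, and in mammals DNA methylation is found mainly at CG dinucleotides, so the upstream sequences of 4 members are shown with each CG in capitals. They are the 250 bases before the annotated start of Grem1, which rose, of Id4, which fell, and of its paralogues Id2 and Id3, which were not called. The sequences are from RefSeq on build GRCm38.p6, given 5′ to 3′ on the strand of the gene, from chr2:113758649-113758898 (minus strand), chr13:48260866-48261115 (plus), chr12:25096093-25096342 (minus) and chr4:136143572-136143821 (plus).
Grem1: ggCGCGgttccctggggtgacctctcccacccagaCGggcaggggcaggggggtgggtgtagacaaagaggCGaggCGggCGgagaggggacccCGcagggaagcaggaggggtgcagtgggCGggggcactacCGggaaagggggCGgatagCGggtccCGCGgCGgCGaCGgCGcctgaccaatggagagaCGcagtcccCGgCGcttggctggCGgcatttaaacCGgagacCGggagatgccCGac
Id4: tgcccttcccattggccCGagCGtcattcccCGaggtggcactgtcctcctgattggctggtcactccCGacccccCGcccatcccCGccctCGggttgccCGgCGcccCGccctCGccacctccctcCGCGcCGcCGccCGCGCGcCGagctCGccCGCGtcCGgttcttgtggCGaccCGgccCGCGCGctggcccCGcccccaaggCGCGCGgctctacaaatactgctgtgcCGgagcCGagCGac
Id2: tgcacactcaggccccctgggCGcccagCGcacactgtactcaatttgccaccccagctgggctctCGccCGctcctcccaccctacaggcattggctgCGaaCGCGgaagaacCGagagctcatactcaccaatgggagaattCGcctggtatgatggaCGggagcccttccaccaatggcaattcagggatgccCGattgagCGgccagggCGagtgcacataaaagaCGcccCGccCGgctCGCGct
Id3: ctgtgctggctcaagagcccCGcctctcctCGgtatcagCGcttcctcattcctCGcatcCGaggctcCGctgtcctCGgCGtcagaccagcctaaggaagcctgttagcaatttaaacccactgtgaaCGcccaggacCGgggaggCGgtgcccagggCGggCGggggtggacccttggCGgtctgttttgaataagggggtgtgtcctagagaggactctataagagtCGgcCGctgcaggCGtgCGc

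All 4 sequences are rich in CG. Id4 had 35 CG, Grem1 24, and Id2 and Id3 18 each, against a median of 6 over the 32851 upstream windows of the same length in the RefSeq table. A window was found for 7 of the 10 members, and the other windows held 36 CG for Bmpr1a, 27 for Smad6 and 11 for Bmp4. The share of all windows with fewer CG was 97.4% for Bmpr1a, 97.0% for Id4, 91.4% for Smad6, 88.0% for Grem1, 78.3% for Id2 and Id3 and 64.4% for Bmp4. Methylation of these sequences was not measured on the arrays. The palindrome GGCGCC, a GC-rich motif known from BMP-responsive elements, occurred 1 time each in the windows of Bmpr1a, Grem1, Id2 and Id4. It was not in those of Bmp4, Smad6 and Id3, and was present in 9.59% of all windows. The motif itself holds a CG, and every member window had more CG than the median window. The share over all windows is therefore not matched for CG content. The Smad box CAGAC, searched on both strands, was present 2 times in Id3 and 1 time in Grem1, and in 42.2% of all windows. The E-box CANNTG, the sequence that E proteins bind, occurred 3 times in Bmp4 and 1 time in Id2, and in 66.2% of all windows. These are matches of letters and not measured binding sites.

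Of the 21 member probe sets, 17 exceeded the median of their array on at least 3 arrays and were tested, and 16 of these exceeded it on all 6 arrays. With limma, 8 of the 17 were called at an adjusted p under 0.05, 2 higher and 6 lower in treated cultures, where 38.7% of all tested probe sets were called (18.4% higher and 20.3% lower). The 2 groups did not overlap in 8 of the 17, against 50.4% of all tested probe sets. The share of members called was thus close to that of the arrays as a whole. Signals below are MAS5 signals scaled to a common level, in signal units, and each log2 change is treated minus control on the scale log2(signal + 9.66). By the brightest tested probe set of each gene, Bmp1 and Grem1 rose, Bmpr1a and Id4 fell, and Bmp4, Smad6, Id1, Id2 and Id3 were not called. That is 4 of 9 genes, beside 41.1% of all tested genes (19.5% higher and 21.6% lower). Bmp2 was too dim to be tested. The median log2 change was -0.21 over the 17 member probe sets beside -5.0e-05 over all tested probe sets. Over the 9 genes it was 0.08, beside -0.0032 over all tested genes, so the 2 member medians differ in sign, and Bmpr1a and Id4 together hold 8 of the 17 probe sets. In such cultures a lower signal from fewer cells of a kind and one from less RNA per cell cannot be told apart.

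**Figure D1:**
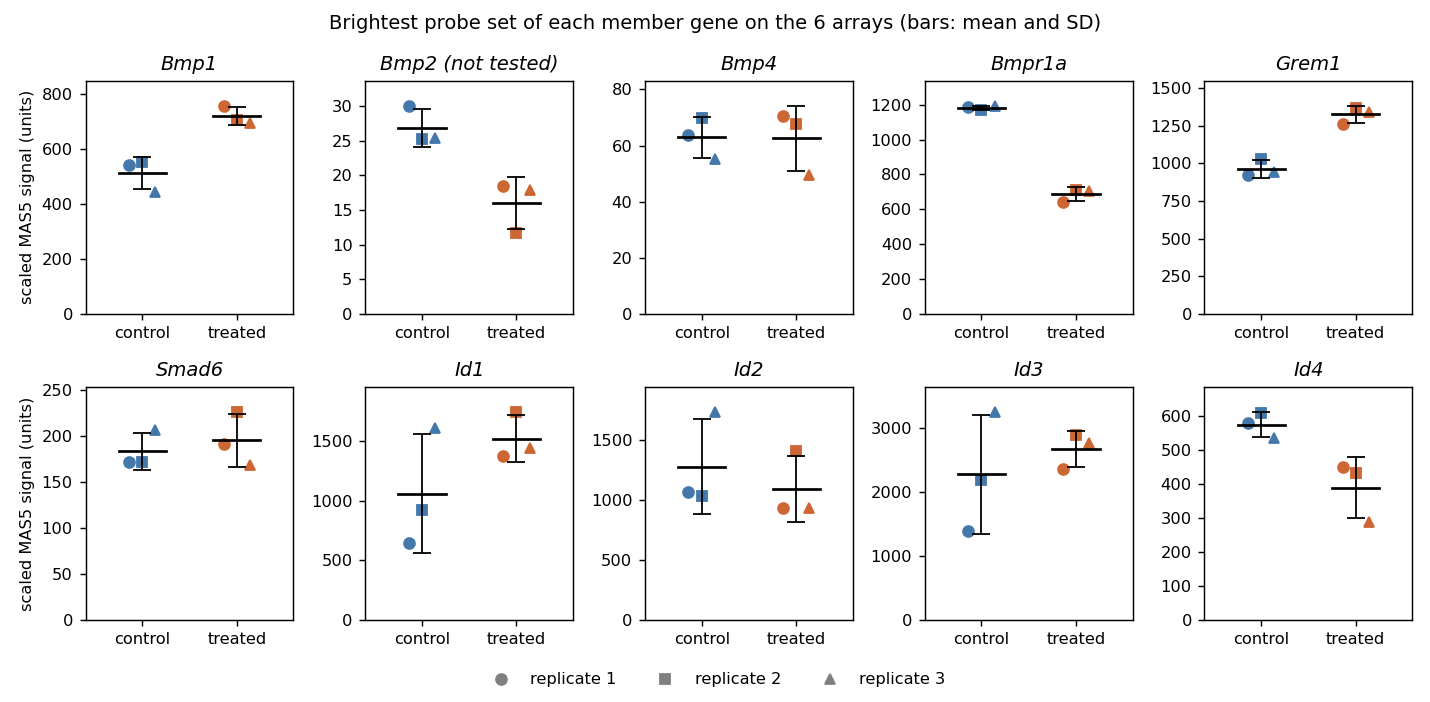
Scaled MAS5 signal of the brightest probe set of each of the 10 genes on the 3 control and 3 treated arrays, with a marker shape for each replicate number and bars for the mean and SD; each panel has its own axis from 0. The groups are separate for Bmp1, Bmp2, Bmpr1a, Grem1 and Id4, and overlap for Bmp4, Smad6, Id1, Id2 and Id3, where the control arrays of Id1 and Id3 spread widely.

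Of the ligands, Bmp4 was low and did not differ beyond its spread. Bmp4 encodes a classical BMP ligand, and its signal in control cultures 1, 2 and 3 was 63.7, 69.9 and 55.3, and in treated cultures 1, 2 and 3 it was 70.7, 67.7 and 49.4. The ranges overlapped almost completely. The log2 change was -0.016 ± 0.23 (SE; adjusted p = 0.965), with a 95% interval from -0.53 to 0.50, so changes up to about that size were not detectable here. Bmp2, the closest paralogue of Bmp4, gave 30.0, 25.2 and 25.3 in controls and 18.4, 11.7 and 17.9 in treated cultures. All of its signals lay under the array median, and although the treated values were the lower ones, it was not tested. With no filter on dim probe sets its log2 change was -0.52 and was not called (adjusted p = 0.274). The planned comparison of the changes of Bmp2 and Bmp4 was therefore not made.

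Bmp1 rose. In spite of its name Bmp1 encodes a secreted metalloprotease, the procollagen C-proteinase, which trims fibrillar procollagens and also cleaves the BMP antagonist chordin. Its brightest probe set, 1426238_at, gave 539, 552 and 444 in controls and 755, 704 and 693 in treated cultures. Every treated array was above every control array. The means were 512 ± 59.0 (SD, n = 3) and 717 ± 33.2, a 1.40-fold higher signal, and the log2 change was 0.49 ± 0.10 (SE; adjusted p = 0.00489). A dimmer probe set, 1427457_a_at, ran from 216 to 309 in controls and from 288 to 371 in treated cultures. Its groups overlapped, and its log2 change of 0.37 ± 0.15 was not called (adjusted p = 0.0801). The other Bmp1 probe set, 1427458_at, stayed below the array median on all arrays and was not tested.

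The receptor Bmpr1a fell. Bmpr1a (ALK3) is a type I receptor that binds Bmp2 and Bmp4. The brightest probe set, 1425492_at, gave 1186, 1169 and 1192 in controls and 642, 714 and 706 in treated cultures. The 3 controls lay within 1.02-fold of each other, and all treated values were far below them. The mean went from 1182 ± 11.5 (SD, n = 3) to 687 ± 39.1, so controls were 1.72-fold higher, with a log2 change of -0.78 ± 0.080 (SE; adjusted p = 6.23e-05). Probe set 1425494_s_at gave 462, 511 and 459 against 331, 229 and 229, a log2 change of -0.86 ± 0.15 (adjusted p = 0.00143). Probe set 1425493_at gave 548, 473 and 492 against 305, 270 and 359 (log2 change -0.69 ± 0.12; adjusted p = 0.00178). In all of these probe sets every control was above every treated array. Probe set 1425491_at showed a smaller difference, from 407 ± 5.68 to 325 ± 18.9 (log2 change -0.32 ± 0.094; adjusted p = 0.0249). Its call was lost in 7 of 14 alternatives: without scaling (adjusted p = 0.320), with quantile normalization (0.0598) and without each single array except treated replicate 3 (0.0531 to 0.090). The dim 1451729_at changed by -0.33 ± 0.24 and was not called (adjusted p = 0.319), and 1445413_at was at or under 4.01 signal units on every array and was not tested. So 4 of 5 tested Bmpr1a probe sets fell and 0 rose. All 5 were designed from 1 sequence entry per the platform annotation, so they are not independent readings.

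Grem1 rose. Grem1 encodes gremlin, a secreted antagonist that binds Bmp2 and Bmp4 and keeps them from their receptors. Its 1 probe set, 1425357_a_at, gave 923, 1032 and 940 in controls and 1262, 1372 and 1343 in treated cultures. The lowest treated array was above the highest control array. The means were 965 ± 58.6 (SD, n = 3) and 1326 ± 56.8, which is 1.37-fold higher in treated cultures, and the log2 change was 0.46 ± 0.081 (SE; adjusted p = 0.00179). With the signals as deposited, without scaling, neither Grem1 (0.38; adjusted p = 0.255) nor Bmp1 (0.41; adjusted p = 0.256) was called, while their directions were kept.

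Smad6, the inhibitory Smad that acts mainly on BMP receptors, gave 172, 172 and 206 in controls and 192, 226 and 168 in treated cultures. The groups overlapped, and the log2 change was 0.08 ± 0.15 (SE; adjusted p = 0.698; 95% interval from -0.24 to 0.41).

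**Figure D2:**
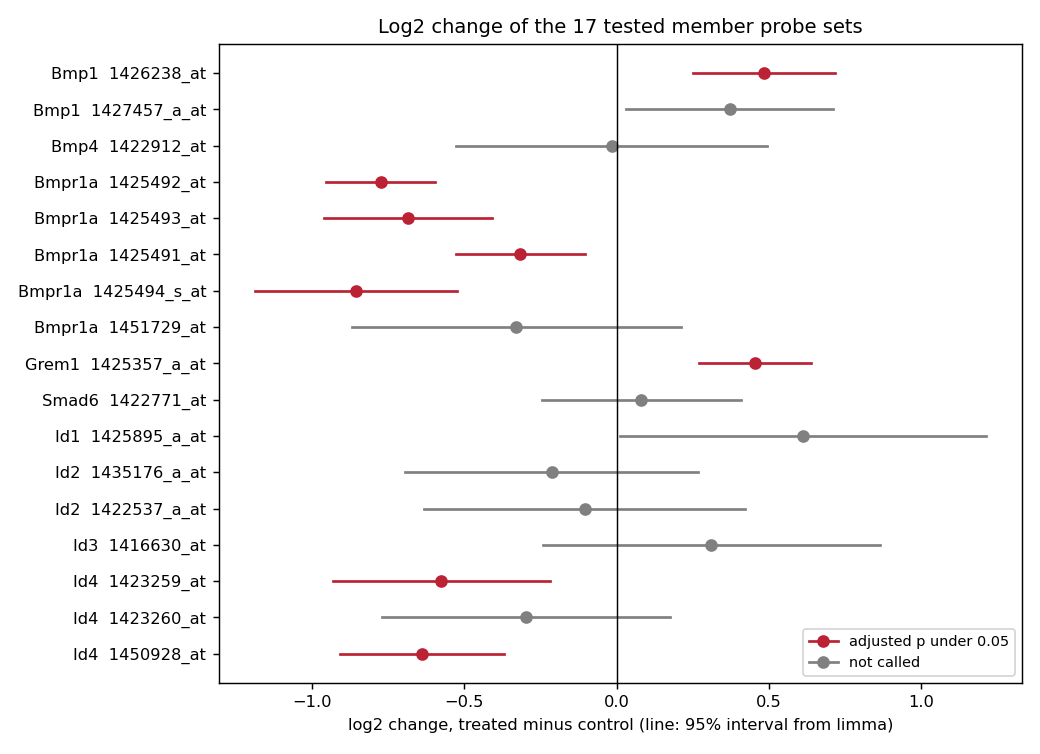
Log2 change of the 17 tested member probe sets, treated minus control, with the 95% interval of limma as a line and the probe sets called at an adjusted p under 0.05 in red. The intervals of 4 of the 5 Bmpr1a and 2 of the 3 Id4 probe sets lie wholly below 0. The other Bmpr1a and Id4 probe sets have changes below 0 with intervals that reach above it. The brightest Bmp1 probe set and that of Grem1 are called above 0. The intervals of Id1 (from 0.012) and Bmp1 1427457_a_at (from 0.033) also lie above 0, but neither was called. The intervals are not adjusted for the number of tests, while the colours are. The widest interval is that of Id1.

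Of the 4 Id genes, Id4 fell, Id1 and Id3 had higher treated means that were not called, and Id2 had a lower treated mean that was not called. Id4, a paralogue often set apart from the others in its activity, was measured by 3 probe sets designed from 1 sequence entry. The brightest, 1423259_at, gave 579, 610 and 537 in controls and 449, 432 and 287 in treated cultures. All controls were above all treated arrays. The mean went from 575 ± 36.7 (SD, n = 3) to 389 ± 88.9, and the log2 change was -0.58 ± 0.16 (SE; adjusted p = 0.0174), which did not pass without control replicate 2 (-0.53; adjusted p = 0.0558). Without treated replicate 3, the lowest array, it was -0.38 (adjusted p = 0.0242). Probe set 1450928_at gave 363, 377 and 405 against 263, 257 and 207, a log2 change of -0.64 ± 0.12 (adjusted p = 0.00234) that was called in all 14 alternatives. Probe set 1423260_at gave 251, 437 and 398 against 305, 335 and 226, and the low control 1 lay among the treated arrays. Its change of -0.30 ± 0.21 was not called (adjusted p = 0.305), and it passed without control replicate 1 (-0.53; adjusted p = 0.039), while it was -0.15 without control replicate 2 and -0.14 without treated replicate 3.

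Id1, the Id gene most often used as a readout of BMP signalling, gave 644, 923 and 1615 in controls and 1379, 1746 and 1442 in treated cultures. Control 3 lay among the treated arrays, while controls 1 and 2 lay below them. The means were 1060 ± 500 (SD, n = 3) and 1523 ± 196. The log2 change of 0.61 ± 0.27 (SE) was not called by limma (adjusted p = 0.101). It was 0.97 (adjusted p = 0.00247) without control replicate 3 and 0.31 (adjusted p = 0.307) without control replicate 1. Id3, which is often induced together with Id1, gave 1387, 2188 and 3252 in controls and 2359, 2899 and 2768 in treated cultures. Control 3 was again the highest control, here above every treated array. The log2 change was 0.31 ± 0.25 (adjusted p = 0.360), with 0.61 (adjusted p = 0.0317) without control replicate 3 and -0.0015 (adjusted p = 0.995) without control replicate 1. Whether Id1 and Id3 differed between the groups thus rested on which control culture was included.

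Id2 overlapped between the groups at every probe set. Its brightest, 1435176_a_at, gave 1070, 1037 and 1737 in controls and 933, 1413 and 934 in treated cultures, with 1 high array in each group. The log2 change was -0.21 ± 0.21 (SE; adjusted p = 0.477), and that of 1422537_a_at was -0.11 ± 0.23 (adjusted p = 0.762). Both were near 0 and positive without control replicate 3, at 0.025 and 0.016. The dim Id2 probe set 1453596_at was not tested.

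The spread of Id1 and Id3 within the control group was large. The highest control was 2.51-fold above the lowest for Id1 and 2.34-fold for Id3, 1.68-fold for Id2 and 1.14-fold for Id4. In the treated group these ratios were 1.27, 1.23, 1.51 and 1.56. The SD of the control log2 values was 0.66 for Id1 and 0.61 for Id3, larger than in 96.9% and 96.2% of all tested probe sets, whose median was 0.17. The treated SD was 0.18 and 0.16, near the median of 0.15. Id2 also had a large control SD, at 0.41, above that of 90.1% of tested probe sets, and its treated SD was 0.34. The control SD of Bmp1 (0.17) was near the median. Smad6 (0.14), Bmp4 (0.15), Id4 (0.091), Grem1 (0.085) and Bmpr1a (0.014) had control SDs below the median. Control 3 was also the highest control for the inhibitory Smad7, a target of both BMP and TGF-beta signalling, at 945 against 240 and 187, and for the Notch target Hes1, at 1152 against 418 and 675. Hes1 was picked after its values were seen. The 5 tested target genes other than the Id genes were mixed. Control 3 was the lowest control for Msx2 (30.4) and Dlx3 (63.2), and the highest for Gata2 (254), Hey1 (101) and Msx1 (155). How often control 3 was the highest control over all tested probe sets was not counted. The 3'/5' signal ratio of the Actb control probe sets, which reflects RNA integrity, was 1.28 in control 3 and 1.26 in both other controls. It was between 1.14 and 1.18 in treated cultures, and its part in any of these differences was not tested.

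**Figure D3:**
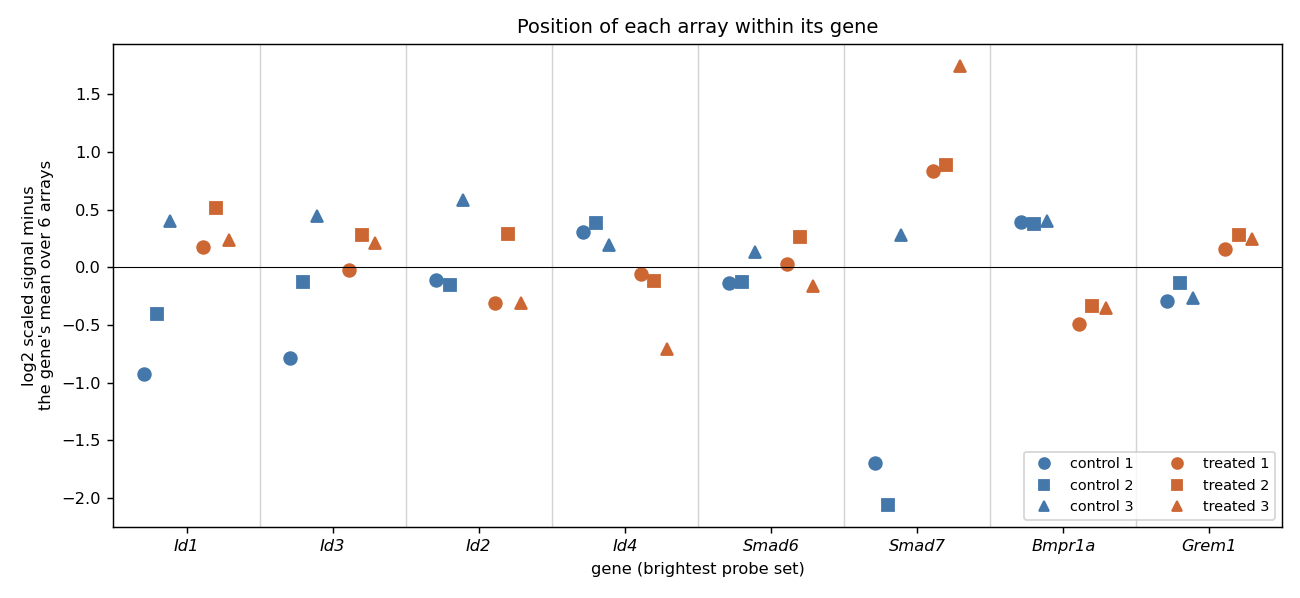
Log2 scaled signal of each array relative to the gene's mean over the 6 arrays, for the 4 Id genes, Smad6, Smad7, Bmpr1a and Grem1, with control arrays in blue, treated arrays in orange and a marker shape for each replicate number. Control 3 stands above controls 1 and 2 for Id1, Id3, Id2 and Smad7, and by less for Smad6. The controls of Bmpr1a and Grem1 lie close together and apart from the treated arrays.

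The changes of the Id genes were set against each other through the difference of their log2 signals within each array, for 6 pairs. The change of Id1 exceeded that of Id4 by 1.19 ± 0.47 (SE), that of Id2 by 0.83 ± 0.22 and that of Id3 by 0.30 ± 0.092, and in each of these pairs the 2 groups of arrays did not overlap. The exact permutation test, two-sided, gave p = 0.1 for each of the 3 (adjusted p = 0.2 over the 6 pairs), which is the smallest p this test can give with 3 arrays against 3, so it could call no pair. The change of Id3 exceeded that of Id4 by 0.89 ± 0.46, and the change of Id2 minus that of Id3 was -0.52 ± 0.26 (exact permutation p = 0.2 for both; adjusted p = 0.24). For Id2 and Id4 the difference was 0.36 ± 0.36 (exact permutation p = 0.3). The differences are therefore given as sizes with their errors, with no call for or against unequal change.

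Genes with the most similar pattern over the 6 arrays were sought among 11636 named genes for 4 of the members. For Id3 they were Ctnnb1, Qsox2 and Lynx1 (Pearson r of 0.999, 0.996 and 0.979), and for Id1 Spry4, Camk2n1 and Ang (0.979, 0.977 and 0.973). For Bmp4 they were Magel2, Arid3a and Znrf3 (0.970, 0.965 and 0.962), and for Grem1 Dtna, Tmc7 and Ptpre (0.999, 0.997 and 0.997). An r of at least 0.9 was reached by 62 genes for Id3, 88 for Id1, 36 for Bmp4 and 1384 for Grem1, whose pattern is mostly the step between the groups. These are correlations over 6 arrays that share the 2 groups, picked as the highest of many, and are given as a description.

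The surrounding pathway was described with lists of 82 other genes, of which 75 had a named probe set and 53 were tested. By the brightest tested probe set, 30 were called, 14 higher and 16 lower, which is 56.6%, beside 41.1% of all tested genes. Their median log2 change was -0.16. Of the called genes, Bmp8b, Msx2 and Pcolce2 were under the array median on all 3 control arrays and Rgma on all 3 treated arrays. These 4 passed the filter only through the group where they were high, so that they had to differ, and they are no support for the counts of their lists. Of the other ligands, 1 of 4 tested rose and 0 fell. The 1 was Bmp8b, one of the genes that passed the filter through the treated arrays alone, a BMP of germ cells and brown fat, whose mean signal was 25.6 ± 12.2 (SD, n = 3) without and 80.2 ± 10.3 with the drug (log2 change 1.40 ± 0.31, SE; adjusted p = 0.006). It was below the filter when this was set on the mean signal. Gdf2 (-0.24), Bmp10 (-0.14) and Bmp5 (-0.12) were not called, and 6 ligands on the array, among them Bmp6 and Bmp7, were too dim to be tested.

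Of 10 tested receptors and co-receptors, 3 rose and 4 fell, which is 70% called, beside 41.1% of all tested genes. The activin and BMP type II receptor Acvr2a went from 937, 978 and 1199 in controls to 218, 243 and 247 in treated cultures, and changed by -2.08 ± 0.11 (SE; adjusted p = 1.25e-06) on the log2 scale; its other probe set gave -1.84. Of the co-receptors, 3 fell, among them Rgma, which passed the filter through the control arrays alone. Tgfbr3 (betaglycan) changed by -2.23 ± 0.29, Neo1 (neogenin) by -1.71 ± 0.12 and the repulsive guidance molecule Rgma, a BMP co-receptor, by -1.43 ± 0.22, and of the other tested Neo1 probe sets 1 changed by -2.16 and 1 by 0.32, the latter without passing. The type I receptor Bmpr1b rose from 77.1 ± 5.08 (SD, n = 3) to 125.3 ± 21.5, the opposite direction to Bmpr1a. Its log2 change was 0.63 ± 0.18 (SE; adjusted p = 0.021). Endoglin, Eng, a co-receptor known from endothelium, changed by 0.66 ± 0.13 (adjusted p = 0.00317) and the type I receptor Acvrl1 by 0.49 (adjusted p = 0.0312). Without scaling Bmpr1b, Eng and Acvrl1 were not called, and 4 of the 10 were called, all lower. Without control replicate 1, treated replicate 1 or treated replicate 3 the list had 1 higher call, since Bmpr1b (adjusted p from 0.0554 to 0.0780) and Acvrl1 (0.0647 to 0.102) missed the threshold. Acvrl1 also missed it without control replicate 3 (0.0872) or treated replicate 2 (0.0521), and with no filter on dim probe sets (0.0569). The main type II receptor Bmpr2 changed by -0.16 ± 0.076 (adjusted p = 0.124), was called lower after quantile normalization (-0.21; adjusted p = 0.0441) and had another probe set with 0.33 (adjusted p = 0.0776). The type I receptor Acvr1 changed by -0.14 ± 0.10 (adjusted p = 0.332).

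Of 11 tested antagonists and modulators other than Grem1, 3 rose and 3 fell, which is 54.5% called, beside 41.1% of all tested genes. Crim1, a membrane protein with chordin-like repeats that binds BMPs, went from 231, 203 and 198 in controls to 1727, 1691 and 1421 in treated cultures. No other tested gene of this list had so large a change, at a log2 of 2.88 ± 0.11 (SE; adjusted p = 1.29e-07), and its other probe set gave 2.88 as well. The follistatin-like Fstl3 changed by 1.58 ± 0.16 and Nbl1 (DAN), a secreted relative of gremlin, by 1.10 ± 0.17. The follistatin-like glycoprotein Fstl1, which was bright in both groups, went from 8209 ± 587 (SD, n = 3) to 5466 ± 419 (log2 change -0.59 ± 0.086). Twsg1 (-0.49; adjusted p = 0.0226) and chordin, Chrd (-0.84; adjusted p = 0.0454), also fell, though other Twsg1 probe sets ranged up to 0.40. The call of chordin was lost in 6 and that of Twsg1 in 5 of the alternatives that kept their probe sets, among them the omission of control replicate 1 or treated replicate 3 for both. The brightest probe set of follistatin, Fst, changed by -0.32 ± 0.12 and was not called (adjusted p = 0.0591; 0.0236 without control replicate 1 and 0.0448 without treated replicate 1), while a dimmer one fell by 0.63 on the log2 scale (adjusted p = 0.000706). Noggin, Nog, was too dim to be tested.

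Of 10 tested Smads and their regulators, 4 rose and 1 fell, which is 50% called, beside 41.1% of all tested genes. By their brightest probe sets the tested receptor-regulated Smads were not called. Smad1 changed by -0.23 ± 0.10 (SE; adjusted p = 0.106), with 0 of 3 tested probe sets called, and Smad5 by -0.44 (adjusted p = 0.0736). Smad9 was too dim to be tested. The 2 dimmer probe sets of Smad5 did fall, by 1.14 and 0.60 on the log2 scale. Without control replicate 3 the brightest Smad5 probe set passed too (-0.60; adjusted p = 0.0188). For the shared partner Smad4 the brightest probe set gave -0.0051, while both other tested probe sets fell (-0.56 and -0.37; adjusted p = 0.000781 and 0.0159). With the least variable probe set standing for each gene, Smad5 and Smad4 were called lower, and the list had 4 higher and 3 lower. The inhibitory Smad7 rose, with 240, 187 and 945 in controls and 1391, 1444 and 2613 in treated cultures, all treated arrays being above all controls. Its log2 change was 2.28 ± 0.51 (adjusted p = 0.0059) at a probe set whose name marks probes that may bind other transcripts, and 0.98 (adjusted p = 0.00148) at its other probe set. The ubiquitin ligases Smurf1 (0.66 ± 0.15) and Smurf2 (0.34 ± 0.10), which target Smads and receptors, also rose; the Smurf2 call (adjusted p = 0.0257) was lost without any 1 of control replicates 2 and 3 and treated replicates 1 and 2 (0.0536 to 0.0986). The related repressors of Smads moved apart, with Ski lower (-0.84 ± 0.094; adjusted p = 0.000108) and Skil higher (0.57 ± 0.080; adjusted p = 0.000432). Without scaling only Smad7 and Ski of this list were called.

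Of 5 tested target genes other than the Id genes, 1 rose and 0 fell, and that 1, Msx2, passed the filter through the treated arrays alone. The share called was 20%, beside 41.1% of all tested genes. The homeobox gene Msx2 went from 39.5, 45.6 and 30.4 in controls to 255, 250 and 187 in treated cultures, and its change was 2.32 ± 0.20 (SE; adjusted p = 2.01e-05) on the log2 scale. Its paralogue Msx1 ran from 13.6 to 155 in controls and from 104 to 162 in treated cultures, and its change of 0.70 ± 0.63 was not called (adjusted p = 0.421). With control replicate 1 left out, Msx1 gave -0.22. Gata2 (0.29; adjusted p = 0.0765, and 0.35 with 0.0432 after quantile normalization), Hey1 (-0.96; adjusted p = 0.137, and -1.52 with 0.00978 without treated replicate 2) and Dlx3 (-0.21) were not called.

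The E proteins, the partners that Id proteins hold, all fell. Tcf4 (E2-2) went from 1109, 1170 and 1354 in controls to 204, 208 and 255 in treated cultures, with no overlap. The log2 change was -2.40 ± 0.12 (SE; adjusted p = 6.45e-07), and 6 of its 6 tested probe sets fell, the smallest change being -1.12. Tcf3 (E2A) changed by -0.90 ± 0.16 (adjusted p = 0.00202) and Tcf12 (HEB) by -0.50 ± 0.084 (adjusted p = 0.00123), and all tested probe sets of both, 2 and 3, fell. Of the class of factors that pair with E proteins on DNA, Twist1 fell (-1.28 ± 0.16; adjusted p = 0.000227), and Twist2 changed by 0.22 without passing (adjusted p = 0.314). The remaining tested gene of this list, Hes1, changed by -0.26 and was not called (adjusted p = 0.556). In all, 4 of 6 tested members of this list fell and 0 rose. That is 66.7% called, beside 41.1% of all tested genes called and 21.6% called lower. The numbers called were the same in every alternative, though with no filter 8 genes of the list were tested. Id proteins and E proteins act by binding each other, and the arrays measured transcripts only.

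The genes around Bmp1 went both ways. Of 7 tested genes of procollagen processing, 2 rose and 4 fell, which is 85.7% called, beside 41.1% of all tested genes. Of the 2, Pcolce2 passed the filter through the treated arrays alone and had to differ. Tll1, a tolloid-like protease of the same family as Bmp1, went from 151, 149 and 108 to 554, 688 and 549, which is 2.07 ± 0.15 (SE; adjusted p = 7.62e-06) on the log2 scale. The procollagen C-proteinase enhancers moved in opposite directions: Pcolce2 went from 34.6 ± 17.4 (SD, n = 3) to 343 ± 83.8, while the far brighter signal of Pcolce fell from 9036 ± 729 to 5242 ± 371. The substrates Col1a1 and Col3a1 changed by -1.70 and -1.79, and Col1a2 by -0.78, at their brightest probe sets. Their other tested probe sets gave -0.44 for Col1a1, which was not called (adjusted p = 0.0765), -4.10 for Col3a1 and -1.30 for Col1a2.

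**Figure D4:**
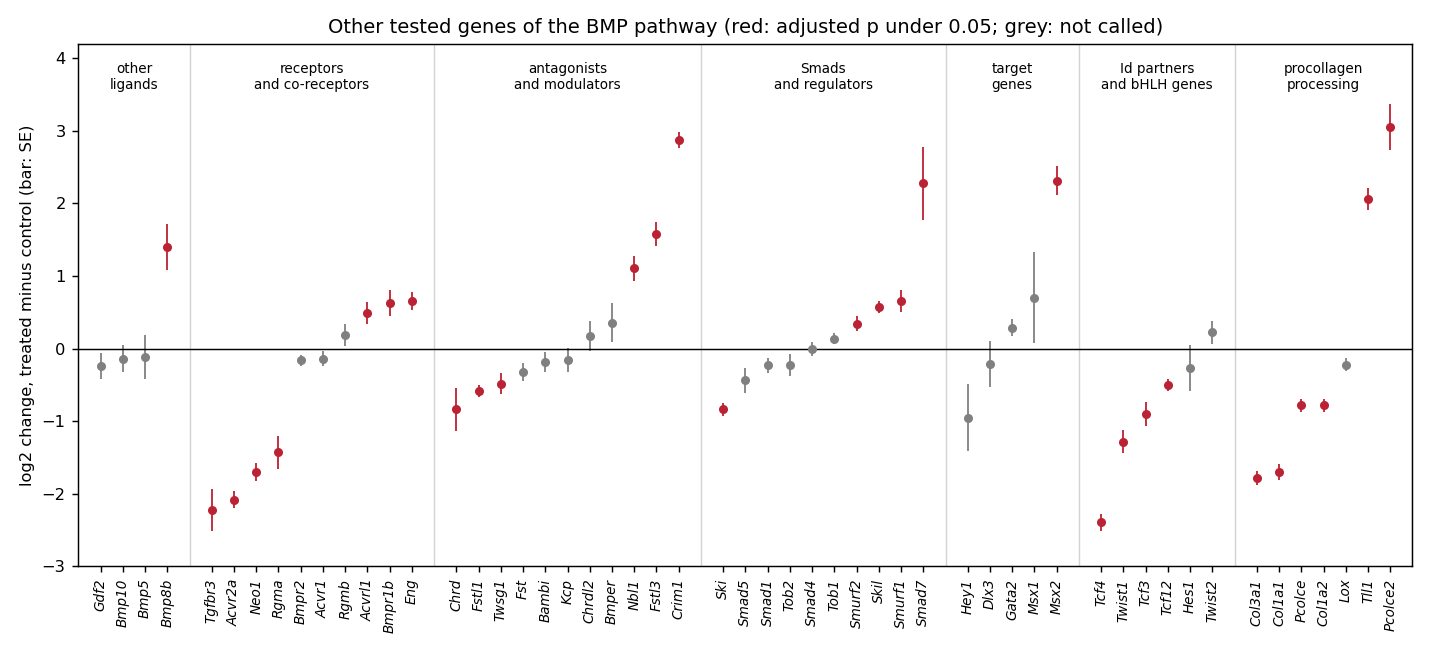
Log2 change, treated minus control, of the 53 tested genes of the pathway lists by their brightest tested probe set, grouped by role, with the moderated SE as a bar and genes called at an adjusted p under 0.05 in red. Crim1, Smad7, Msx2, Tll1 and Pcolce2 lie highest, and Tcf4, Tgfbr3 and Acvr2a lowest.

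The labelled cell type was checked on markers. Of 10 fibroblast markers, 9 were above the array median on every array. But 8 of the 10 fell and 1, S100a4, rose, beside 21.6% of all tested genes lower and 19.5% higher. The summed signal of the 10 markers was between 55701 and 61933 in controls and between 30516 and 36646 in treated cultures. Summed skeletal muscle markers were at 781 to 928 in controls and 4683 to 5394 in treated cultures, mostly through Acta1 (log2 change 3.05). Des rose as well (0.99, adjusted p = 0.00135), so 2 of 3 tested members of that list were higher, beside 19.5% of all tested genes. Myod1, Myog and Myh3 were too dim to be tested. Summed cartilage and bone markers were at 680 to 767 and 368 to 527, with Col2a1 (-1.89) and Sox9 (-1.49) lower. In that list 4 of 6 tested members fell, beside 21.6% of all tested genes. Among the 4, Col2a1 and Comp were under the array median on every treated array. They passed the filter through the control arrays alone, so that they had to differ. Sums of endothelial (329 to 396 against 327 to 447), keratinocyte (183 to 268 against 211 to 261), melanocyte and Schwann cell (323 to 417 against 318 to 456), leukocyte (452 to 590 against 566 to 786) and adipocyte markers (146 to 369 against 314 to 344) overlapped between the groups. Single markers in these lists were called, with Cd68 (1.08; adjusted p = 0.00703) and Cdh5 (0.83; adjusted p = 0.0473) higher and Tek (-0.78; adjusted p = 0.0322) and Pmel (-1.22; adjusted p = 0.0356) lower. Cdh5 passed the filter through the treated arrays alone and Tek through the control arrays alone, so that both had to differ. Pecam1, Cldn5, Krt14, Ptprc, Cd3e and Adipoq were too dim to be tested. The part of these markers in the differences of the BMP genes was not tested.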

How the data were processed

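Each of the 6 cultures has 1 array. The deposited values are MAS5 signal intensities per probe set, per the submitters' processing notes; MAS5 corrects for background with mismatch probes, and no version was named and no detection calls were used. The number of arrays limits the precision. After leaving out 64 control probe sets, arrays were scaled to a common 2% trimmed mean of 193.2 and transformed to log2(signal + 9.66), which understates changes of dim probe sets. Probe sets above the array median on at least 3 arrays were tested (23388) with limma 3.58.1 in R 4.3.3 (eBayes with trend, group as the sole term, two-sided), adjusted by Benjamini-Hochberg over all of them. Groups came from the titles. For each gene the tested probe set of highest mean log2 signal stood for it. The limma step was run on simulated data with independent noise and far fewer changed probe sets than were called here. Scaling was not part of that run, so it cannot show how the calls depend on scaling. All 10 members are named; from each pathway list the 5 genes with the smallest p, 8 genes whatever their values (Bmpr2, Acvr1, Nog, Fst, Smad1, Smad7, Msx1, Tcf4) and the 3 genes most like Bmp4, Grem1, Id1 and Id3; other list genes were named after their values were seen. Members and lists were chosen with earlier results of these data known. Cultures were explanted separately for each replicate per the design text. Alternatives changed the pseudocount, scaling, filter, trend, block, representing probe set and arrays.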

Additional observations from a re-analysis of the deposited data

How the results depend on the processing

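The calls of Bmpr1a at its 3 most changed probe sets and of Id4 at 1450928_at kept direction and threshold in all 14 alternatives. Without scaling, 5 member probe sets were called (0 higher, 5 lower) in place of 8, and 5019 of all probe sets in place of 9040, with 1977 higher and 3042 lower; Grem1, Bmp1 and Bmpr1a 1425491_at lost their calls. Leaving out 1 array gave 6 to 9 member calls, 27 to 29 pathway calls and 7635 to 8061 calls in all. Bmpr1a 1425491_at also missed the threshold after quantile normalization (adjusted p = 0.0598) and without each single array except treated replicate 3 (adjusted p from 0.0531 to 0.090). Directions turned for changes near 0. Leaving out 1 array gave -0.099 to 0.12 for Bmp4 (0.053 without control replicate 2, 0.12 without treated replicate 3), -0.32 to 0.20 for Id2 1422537_a_at (0.016 without control replicate 3, 0.20 without treated replicate 3), -0.41 to 0.025 for Id2 1435176_a_at (0.025 without control replicate 3), -0.0015 to 0.61 for Id3 (-0.0015 without control replicate 1) and -0.023 to 0.18 for Smad6 (-0.023 without treated replicate 2). The Bmp1 probe set 1427457_a_at passed after quantile normalization (0.43; adjusted p = 0.0417) and without control replicate 1 (0.51; adjusted p = 0.0252). The causes were not tested. With the replicate number as a block, 8 member probe sets, 31 pathway genes and 9541 probe sets in all were called; the brightest Smad5 probe set passed there (-0.44; adjusted p = 0.0447). With this block Id1 (adjusted p = 0.0531) and Id3 (adjusted p = 0.176) had smaller limma p-values than without it and were still not called. Deviations of same-numbered arrays correlated at 0.19, 0.17 and 0.072, each above the correlations with other numbers. The labels do not say whether a replicate number marks an explant shared by the groups. The comparison of Bmp2 with Bmp4 was not run, as Bmp2 was below the filter; no detection calls were used, so dim signals such as those of Bmp2 were not separated from background.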
